A study of Mus musculus with 108 samples.

Results

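The Hox gene clusters of the mouse were followed through a reporter screen that asked which stretches of open chromatin can drive a minimal promoter as embryonic stem (ES) cells turn into blood progenitors. All 39 protein-coding genes named Hox with a letter a to d and a number were taken from GENCODE, of 21911 protein-coding genes. They lie in 4 clusters, and each cluster was examined from its first to its last gene with 20 kb added on each side. On mm10 these windows were chr6:52135590-52280880 for the 11 Hoxa genes, chr11:96174316-96388256 for the 10 Hoxb genes, chr15:102901103-103056852 for the 9 Hoxc genes and chr2:74648310-74785142 for the 9 Hoxd genes.

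HM-1 is a mouse ES cell line with a non-functional Hprt locus. Fragments cut by Tn5 transposase from the open chromatin of 5 differentiation stages were cloned upstream of an HSP68 minimal promoter and a Venus-YFP reporter, and the cassette was placed at Hprt, so all groups shared the cell line, the insertion site and the promoter. A fragment was read at Hprt and not at its own position, in a pool of cells from 1 line. Cells were ES cells, FLK1+ cells (HB), KIT+ TIE2+ CD41- cells (HE1), KIT+ TIE2+ CD41+ cells (HE2) or KIT+ TIE2- CD41+ cells (HP), with no treatment that separated the groups other than the differentiation itself. YFP fluorescence set 4 gates at each stage in replicates 1 to 4 (Negative, then Low, Medium or High), and in replicate 5 the upper gates were joined as Medium/High, which gave 95 libraries. Each library was a list of distinct fragments with no read count, split into promoter and distal fragments. Lists of inserted DNA hold no expression, so the stages could not be checked against marker genes. The labels number the replicates without saying whether they were separate transfections or differentiations, so the p-values below measure the spread between these 5 replicates, which may be partly technical.

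Hox genes encode homeodomain transcription factors that give cells of the embryo their position along the body axis. Within a cluster the genes are switched on in the order in which they lie, those at the 3′ end (low numbers) first, and genes at the same rank in different clusters are paralogs. Silent clusters are held by Polycomb repression, and retinoic acid, CDX factors and Trithorax proteins such as MLL (Kmt2a) are known to activate them. In blood, Hoxa9, Hoxa10, Hoxa7, Hoxb4 and Hoxa5 are known from stem and progenitor cells and from leukaemia.

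In the terms used below, the positive set of a stage and replicate joined the lists of all its gates other than Negative, and the high set joined those above Low. There were 25 sets of each kind, 5 stages in 5 replicates. A level is the number of distinct fragments in a window per 10000 fragments listed in that set.

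The windows held 941 distinct fragments of 1176712 in the genome. These appeared 1722 times over the lists, and 80 of the 95 libraries held at least 1. Hoxb had 395 distinct fragments, Hoxd 238, Hoxa 174 and Hoxc 134. Of the 941, 615 (65.4%) were seen only in positive gates, 108 (11.5%) only in Negative gates and 218 (23.2%) in both. Over the whole genome the same shares were 65.5%, 9.96% and 24.6%. Distal fragments made up 40.7% of the Hox fragments against 33.6% of all fragments, and ranged from 28.2% in Hoxd and 32.8% in Hoxa to 41.8% in Hoxc and 51.4% in Hoxb. Of the Hox fragments, 547 (58.1%) were seen in a single library and 293 in at least 2 replicates.

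To show what was cloned, the fragment positive in most sets was taken from each cluster among distal fragments that lay outside exons and were at most 300 bp long. These sequences are of mm10 (GRCm38), plus strand. Capitals mark matches to 9 short motifs, named here by the family that binds them and searched on both strands. The motif of the GATA family was taken as AGATAA, that of RUNX factors as TGTGGTT, that of HOX bound with PBX as TGATNNAT, that of CDX factors as TTTATG, the half-site of nuclear receptors as AGGTCA, that of ETS factors as AGGAAGT, that of AP-1 as TGANTCA, that of TEAD factors as CATTCCA and the core of homeodomains as TAAT. The homeodomain core can lie within other matches.
Hoxa, chr6:52270647-52270741: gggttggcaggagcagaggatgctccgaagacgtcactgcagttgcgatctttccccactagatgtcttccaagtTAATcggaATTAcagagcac
Hoxb, chr11:96311870-96311975: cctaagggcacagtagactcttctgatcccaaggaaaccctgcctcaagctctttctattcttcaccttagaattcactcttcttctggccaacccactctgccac
Hoxc, chr15:102943104-102943401: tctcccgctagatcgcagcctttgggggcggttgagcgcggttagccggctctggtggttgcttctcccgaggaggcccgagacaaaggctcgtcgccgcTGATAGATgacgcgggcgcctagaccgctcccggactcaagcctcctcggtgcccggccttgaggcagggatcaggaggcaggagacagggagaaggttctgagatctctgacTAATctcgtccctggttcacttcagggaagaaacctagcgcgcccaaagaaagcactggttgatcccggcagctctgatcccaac
Hoxd, chr2:74672869-74673141: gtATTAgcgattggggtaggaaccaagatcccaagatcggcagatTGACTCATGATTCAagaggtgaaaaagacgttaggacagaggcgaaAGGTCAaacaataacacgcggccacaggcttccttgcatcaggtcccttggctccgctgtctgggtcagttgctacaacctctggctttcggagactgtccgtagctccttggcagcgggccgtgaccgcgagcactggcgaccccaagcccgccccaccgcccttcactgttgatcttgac

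The Hoxa fragment, 95 bp long and 9814 bp from the start of Hoxa13, was positive in 3 sets and never Negative, and it was not identical to any plasmid fragment. It held the core TAAT once on each strand, a motif present in 21.4% of distal fragments within 10 bp of its length. The Hoxb fragment, 106 bp long between Hoxb5 and Hoxb4, was positive in 6 sets from HB, HE1, HE2 and HP and in no Negative set. It matched none of the 9 motifs. The Hoxc fragment, 298 bp long between Hoxc12 and Hoxc11, was positive in 4 sets of HB, HE1 and HP and in no Negative set. Its HOX with PBX match began at base 101, and 6.14% of distal fragments of similar length held that motif. The Hoxd fragment, 273 bp long between Hoxd13 and Hoxd12, was positive in 3 sets and Negative in 2. It held 2 AP-1 motifs that overlap by no base (11.5% of fragments of similar length had at least 1) and a nuclear receptor half-site (17.1%). The homeodomain core was also present once in each of the Hoxc and Hoxd fragments (49.2% and 46% of fragments of similar length). A match describes letters only and does not show that a factor bound there.

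The replicates differed in depth, and this bounds all that follows. Libraries listed 504 to 131036 fragments, with medians of 60021 and 41584 in replicates 1 and 2 against 1948, 1724 and 1111 in replicates 3, 4 and 5. The same replicates held 905, 633, 130, 38 and 16 Hox fragments. In the smallest positive set, of 1552 fragments, a single fragment was worth 6.44 per 10000, and in the largest, of 229660, it was worth 0.0435. The sorted lists hold no read depth, so these figures cover the number of listed fragments only. HE1 Negative replicate 1 shared 78.5% of the smaller list with HE1 Medium replicate 2, and HE1 Negative replicate 3 shared 83.0% with HE1 Low replicate 4, against a median of 2.46% over pairs of libraries from different replicates. These 4 libraries held 92, 73, 11 and 11 Hox fragments, and the counts of sets at named promoters and sites, and the differences between groups of the 4 windows over stages, are also given without them.

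All 4 clusters gave fragments that were listed from YFP-positive cells. The positive level, averaged over the 5 stages, was 2.86 ± 1.75 per 10000 (SD, n = 5 replicates) for Hoxb, 2.75 ± 2.09 for Hoxd, 1.65 ± 1.02 for Hoxa and 1.27 ± 1.02 for Hoxc. Hoxb was 3.01, 2.70, 4.17, 4.39 and 0 in replicates 1 to 5, and Hoxd was 1.72, 2.06, 5.86, 3.67 and 0.445. For Hoxa the replicates gave 1.43, 1.07, 1.49, 0.841 and 3.40, and for Hoxc 1.07, 1.22, 0.970, 0.151 and 2.93. Replicate 5 was thus the lowest for Hoxb and Hoxd and the highest for Hoxa and Hoxc. The ranges of the clusters overlapped. In the deeper replicates 1 and 2, over 10 positive sets each, Hoxb ran from 2.13 to 3.40, Hoxd from 1.05 to 2.71, Hoxa from 0.601 to 1.57 and Hoxc from 0.739 to 1.80, so that there every Hoxb set lay above every Hoxa and Hoxc set.

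The windows differ in length, from 137 kb for Hoxd to 214 kb for Hoxb. Per 100 kb, the mean positive level per 10000 was 2.01 ± 1.52 (SD, n = 5 replicates) for Hoxd and 1.33 ± 0.820 for Hoxb. Hoxa had 1.13 ± 0.699 and Hoxc 0.815 ± 0.654. These spreads overlap, so they do not rank the clusters. The Hoxd mean includes replicate 3, at 5.86 per 10000 before scaling by length, whose lists are short. The median of the 12195 windows of 150 kb in the rest of the genome that held a sorted fragment was 0.202. Their upper quartile was 0.723 and their 95th percentile 2.21. Windows without a sorted fragment were not included. Hoxd lay above 93.8% of these windows, Hoxb above 87.5%, Hoxa above 84.5% and Hoxc above 77.6%. Hoxb lies on chromosome 11, which held 12.4% of all listings, against 7.49% for chromosome 2, 4.60% for chromosome 6 and 4.00% for chromosome 15. Set against its own chromosome, Hoxb had 24.0 of 10000 listings and the other clusters had 27.9 (Hoxd), 28.6 (Hoxc) and 28.7 (Hoxa).

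Negative cells held Hox fragments at similar levels. The Negative level was 2.71 ± 1.56 per 10000 (SD, n = 5) for Hoxb, 2.57 ± 3.41 for Hoxd, 1.39 ± 1.35 for Hoxa and 1.00 ± 0.615 for Hoxc. In replicates 1 and 2 the Negative sets ran from 1.36 to 3.84 for Hoxb, from 1.43 to 2.85 for Hoxd, from 0.569 to 3.14 for Hoxa and from 0.429 to 2.16 for Hoxc, and each range overlapped that of the positive sets.

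**Figure D1:**
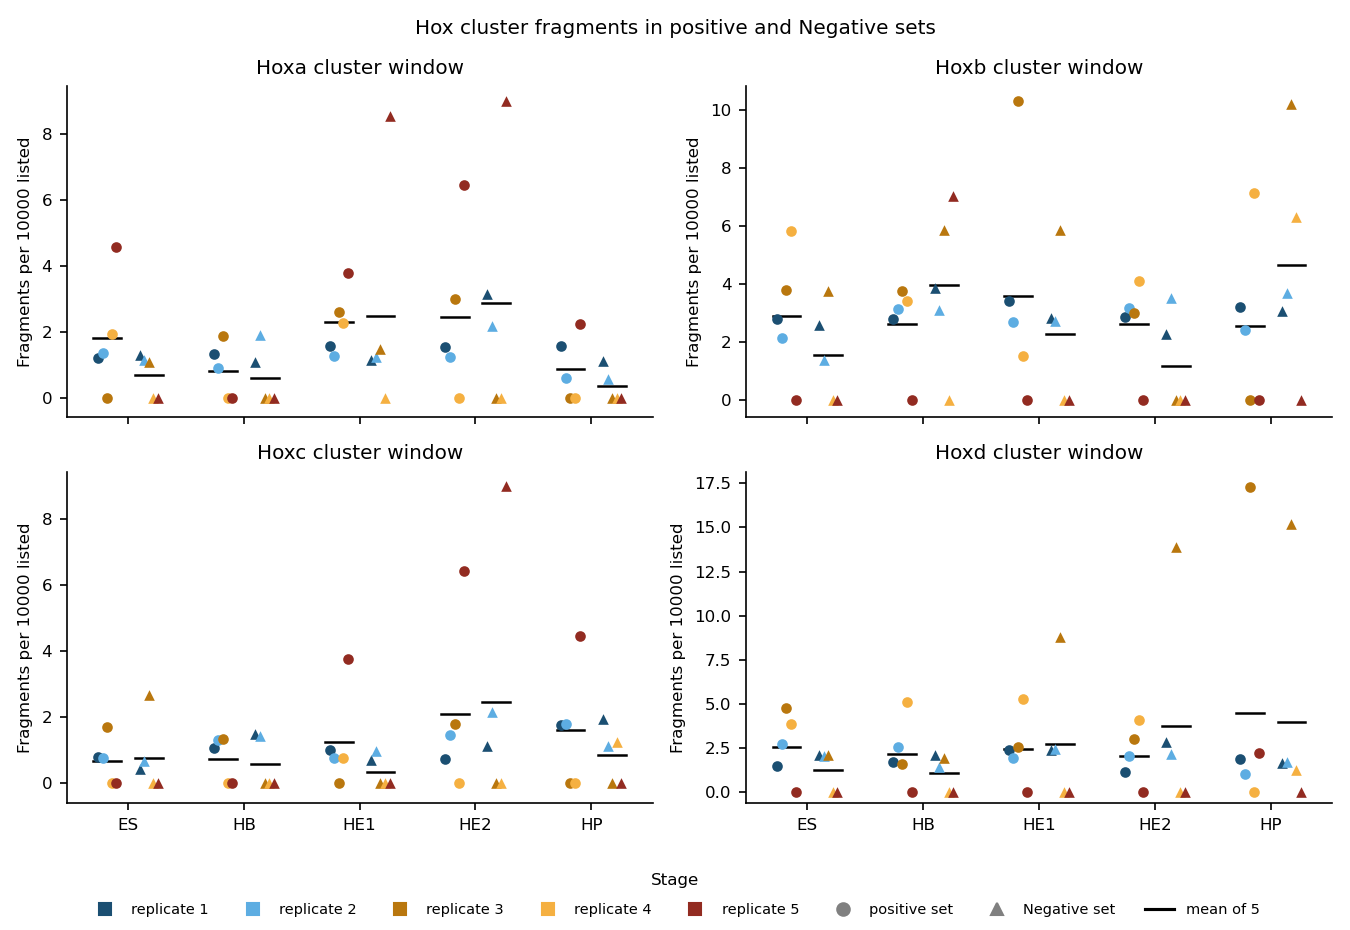
Distinct fragments in each cluster window per 10000 listed fragments (vertical axis), in the positive (circles) and Negative (triangles) set of every stage and replicate, with the mean of the 5 replicates as a bar. Replicates 1 and 2 sit close together in all panels, while replicates 3, 4 and 5 take both the zeros and the highest values, such as 17.3 for Hoxd in HP.

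The first comparison was whether fragments of a cluster were more common in positive than in Negative cells. No Hox window passed the test. On the scale log2(fragments per 10000 + 1), averaged over stages, positive minus Negative was 0.32 ± 0.36 for Hoxa (SE, 5 against 5 replicates), 0.18 ± 0.43 for Hoxb, 0.24 ± 0.33 for Hoxc and 0.27 ± 0.43 for Hoxd, each with an adjusted p of 1.00 in limma. Without the 4 HE1 libraries these differences were 0.29, 0.16, 0.18 and 0.34. The test covered the 9811 windows of the genome that passed a filter on low values, of which it called 0%. Within single stages the largest differences were in Hoxb. They were 0.89 ± 0.79 in HE2 (adjusted p = 0.998 in limma), where the Negative sets of replicates 3, 4 and 5 had no Hoxb fragment, and -0.75 ± 0.77 in HP (adjusted p = 1.00 in limma).

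The second comparison set high against Low gates, a measure of reporter strength among positive cells. Averaged over stages, high minus Low was 0.54 ± 0.44 (SE) for Hoxb (0.12 without replicate 4), 0.34 ± 0.36 for Hoxc (0.16 without replicate 5), 0.06 ± 0.40 for Hoxa and -0.12 ± 0.44 for Hoxd, and each adjusted p in limma was 1.00. Without the 4 HE1 libraries they were 0.60, 0.40, 0.14 and -0.13. The background was 0% of windows called here too. The lowest unadjusted p over the windows was that of Hoxa in HE1. Its Low sets held 1.83, 1.52, 5.19, 2.60 and 8.26 fragments per 10000 in replicates 1 to 5, and its high sets 1.5, 1.14, 0, 0 and 0. The Low values of replicates 3, 4 and 5 came from 1, 3 and 1 fragments. The high sets of these replicates listed 1998, 2417 and 1678 fragments, and a count of 0 there allows up to 15, 12.4 and 17.9 per 10000, above the Low values. Replicates 1 and 2, the deeper ones, gave 1.83 against 1.5 and 1.52 against 1.14. The log2 difference was -1.62 ± 0.78 (SE), with an unadjusted p of 0.0380 and an adjusted p of 0.999 in limma. Without the 4 HE1 libraries that share fragments it was -1.66 ± 0.86 (adjusted p = 1.00, limma). Next came Hoxc in HE2, 1.34 ± 0.73 (adjusted p = 0.997, limma), and Hoxd in HB, -1.24 ± 0.79 (adjusted p = 0.993, limma).

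The third comparison followed the positive sets from stage to stage. Hoxa was 1.82 ± 1.70 per 10000 (SD, n = 5) in ES cells and 0.818 ± 0.822 at HB. It then was 2.29 ± 0.979 at HE1 and 2.44 ± 2.48 at HE2, and 0.875 ± 0.986 at HP. All 5 positive sets of HE1 held a Hoxa fragment, but those of replicate 4 came from a library that shares fragments. Without the 4 HE1 libraries replicate 4 was 0 and the HE1 mean 1.88 ± 1.40 (SD, n = 5). HE1 minus HB was 0.94 ± 0.57 on the log2 scale (SE), with an adjusted p of 0.999 in limma, and 0.62 ± 0.62 without those libraries (adjusted p = 0.981, limma). Hoxb stayed between 2.55 ± 2.93 in HP and 3.59 ± 3.99 in HE1 (3.33 ± 4.23 without the 4 libraries). Hoxd lay between 2.06 ± 1.59 in HE2 and 4.49 ± 7.23 in HP, the latter carried by 17.3 in replicate 3. In HE1 Hoxd was 2.44 ± 1.89, and 4.58 ± 6.77 without the 4 libraries, when the short list left in replicate 4 gave 16.5. Hoxc had its lowest mean in ES, 0.658 ± 0.710, and its highest in HE2, 2.09 ± 2.53. The 4 later stages minus ES gave 0.39 ± 0.43 for Hoxc (0.01 without replicate 5), -0.13 ± 0.47 for Hoxa, -0.10 ± 0.47 for Hoxb and -0.08 ± 0.48 for Hoxd (SE, adjusted p = 1.00 for each in limma), and without the 4 HE1 libraries 0.35, -0.20, -0.16 and -0.02. No step between neighbouring stages passed the test for any cluster.

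Over these 17 comparisons (positive against Negative and high against Low in 5 stages and over their mean, 4 steps between stages, and later stages against ES), limma called 0 of the 68 tests of Hox windows, and 1 (1.47%) had an unadjusted p under 0.05, against 1.74% of tests over all windows. The background was 0% in 15 of the 17 comparisons of windows, 0.0120% in HE1 against HB and 0.0116% in later stages against ES. With so few calls anywhere, a count of 0 among 4 windows does not set the Hox clusters apart.

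**Figure D2:**
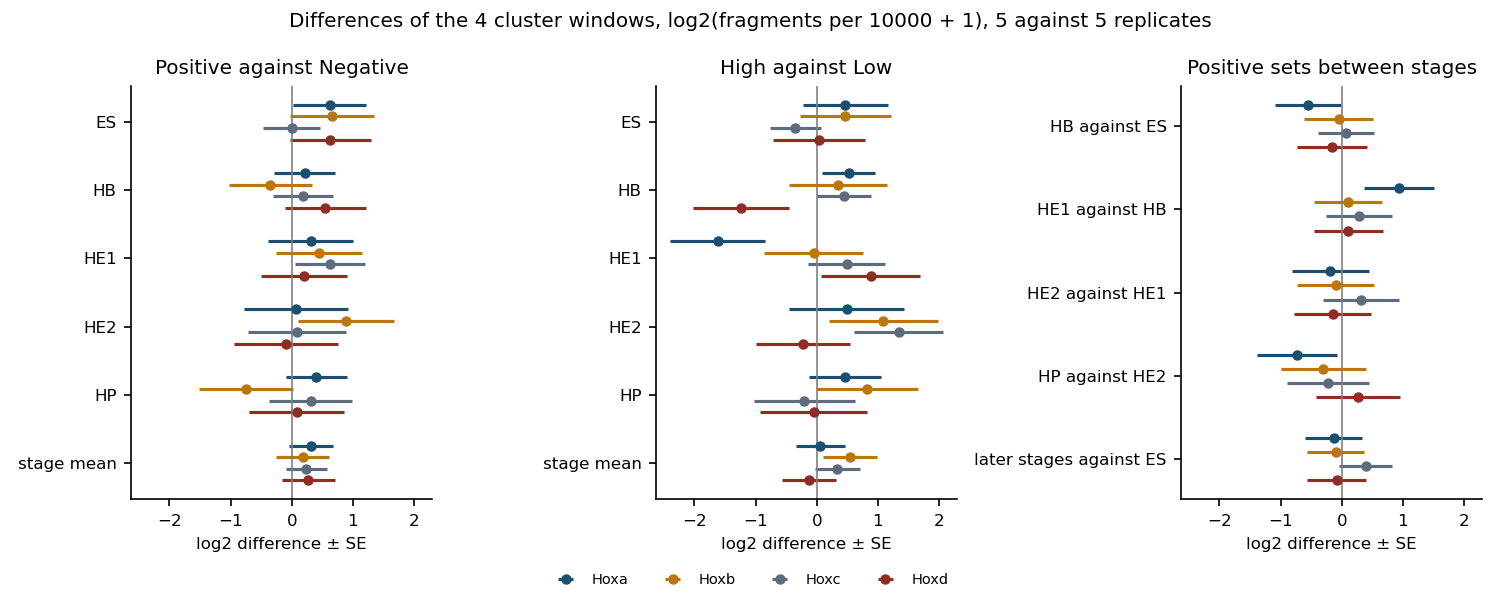
Differences between sets for the 4 cluster windows in log2(fragments per 10000 + 1), positive minus Negative (left), high minus Low (middle) and later minus earlier stage (right), as points with bars of 1 SE, 5 replicates against 5. Most bars cross or reach near 0, and the point farthest from it is Hoxa in HE1, high minus Low, at -1.62.

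At promoters, 28 of the 39 Hox genes had a positive fragment within 1.5 kb of their gene start. When any annotated start of a coding transcript counted, 30 did. The median Hox promoter was positive in 7 of 25 sets and Negative in 2, against medians of 9 and 5 over all protein-coding genes. Of the Hox promoters 28.2% had no positive fragment, against 34.8% of all promoters. The median was 12 sets in Hoxd, 7 in Hoxa, 5.50 in Hoxb and 4.00 in Hoxc. By paralog number, at gene starts, it was 5.50 for paralogs 1 to 3, 7 for 4 to 8 and 5.50 for 9 to 13. The group 4 to 8 includes Hoxc5 and Hoxd4, whose gene starts collect the same fragments as Hoxc10 and Hoxd3. Each was positive in 12 sets there, and in 6 when any annotated coding start counted. These medians therefore do not show whether recurrence ran in a direction along the clusters.

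Hoxd13, the last gene of its cluster and a patterning gene of limb and digits, had the most recurrent promoter. Fragments near its start were positive in 16 sets (15 without the 4 HE1 libraries) and Negative in 8 (6). Over the 25 positive sets its level ran from 0 through a median of 0.164 to 4.09 per 10000, and over the Negative sets from 0 through 0 to 13.9, so the ranges overlapped. The fragment chr2:74668284-74668680 at this start was listed in 15 libraries, the most of any Hox fragment.

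Hoxb4, whose product expands blood stem cells when supplied, followed with 15 positive and 10 Negative sets (14 and 8 without the 4 HE1 libraries). Its positive fragments came from all 5 stages, from 4 replicates each in ES and HE1, 3 in HB and 2 each in HE2 and HP. The stage mean was 0.210, 0.145, 0.708, 0.880 and 0 per 10000 in the positive sets of replicates 1 to 5, and 0.316, 0.366, 0.584, 0 and 1.40 in the Negative sets. Neither group was above the other.

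Hoxd10, a posterior gene of limb and spinal cord, had the largest number of distinct positive fragments at a Hox start, 34, in 12 positive and 10 Negative sets (9 without the 4 HE1 libraries). Most of them fell on its RefSeq promoter, which is printed because it was the most densely sampled start of the 4 clusters. RefSeq promoters, 250 bases before to 50 after a start, were matched for 22 of the 39 genes, and the sequence below is from RefSeq on GRCm38.p6, chr2:74691641-74691940, plus strand. It overlapped 32 distinct fragments. Of these, chr2:74691874-74692084 was identical to a fragment of the PCR control lists, made from cells without a reporter, in 6 listings (4 of them positive). Capitals mark a nuclear receptor half-site on the minus strand (16.3% of RefSeq promoters hold that motif) and a homeodomain core on the minus strand (58%).
Hoxd10: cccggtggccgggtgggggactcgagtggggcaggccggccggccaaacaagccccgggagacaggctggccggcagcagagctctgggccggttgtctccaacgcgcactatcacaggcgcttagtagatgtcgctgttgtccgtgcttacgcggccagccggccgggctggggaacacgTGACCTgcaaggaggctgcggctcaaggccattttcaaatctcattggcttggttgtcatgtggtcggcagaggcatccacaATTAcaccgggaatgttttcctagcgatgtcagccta

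Hoxc13, a gene of hair and nail, was positive in 12 sets and Negative in 8. Hoxc10 was positive in 12 and Negative in 9 (11 and 8 without the 4 HE1 libraries), and Hoxc5 had the same counts because a long Hoxc5 transcript starts near Hoxc10 and both starts collect the same fragments. At Hoxd9 the counts were 12 positive and 4 Negative, at Hoxb9 10 and 6, at Hoxa5 10 and 8 and at Hoxd1 10 and 9. Hoxd3 and Hoxd4, with annotated starts 2 bp apart and shared fragments, were positive in 12 sets and Negative in 2. These counts belong to the shared start. When starts of coding transcripts counted, Hoxd4 was positive in 6 sets and Negative in 2. The RefSeq promoter of Hoxd4, chr2:74721728-74722027, held 0 fragments. Leaving out the 4 HE1 libraries took 1 Negative set each from Hoxc13, Hoxd9, Hoxb9, Hoxa5 and Hoxd1 and none from Hoxd3 and Hoxd4, and left the positive counts of these 7 as they were.

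The start shared by Hoxd3 and Hoxd4 also had the lowest unadjusted p among the promoters. The stage mean of Hoxd3 was 0.0992, 0.116, 2.86, 0 and 0 per 10000 in the positive sets of replicates 1 to 5, and 0.0858, 0, 0.107, 0 and 0 in the Negative sets. The values overlapped, and the highest, 2.86, rested on replicate 3, with 13 in HP. Positive minus Negative was 0.22 ± 0.10 on the log2 scale (SE, unadjusted p = 0.0335, adjusted p = 1.00 in limma, and an unadjusted p of 0.0594 without the 4 HE1 libraries), and high minus Low was 0.26 ± 0.13 (unadjusted p = 0.0422, adjusted p = 1.00 in limma).

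Of the genes known from blood or early mesoderm, Hoxa7 was positive in 8 sets and Negative in 4, Hoxa3 in 8 and 6, Hoxa10 in 7 and 6, Hoxb8 in 8 and 8, Hoxb5 in 7 and 4, Hoxb1 in 4 and 2, and Hoxb3 in 1 and 0. Without the 4 HE1 libraries these counts were 7 and 5 for Hoxa3, 7 and 5 for Hoxa10 and 8 and 7 for Hoxb8, and those of the other 4 did not move. Hoxa9, a gene often raised in acute leukaemia, had no sorted fragment at any annotated start. Some promoters had no positive fragment at certain stages. Hoxb5, Hoxb8 and Hoxc6 had no positive fragment in ES and had one in 7 or 8 sets of the later stages, and Hoxb7 had none in ES or HP and was positive in 8 sets of HB, HE1 and HE2. Hoxa4, Hoxb1, Hoxb3, Hoxb13, Hoxc9 and Hoxd12, positive in 1 to 4 sets, had none in ES either. These counts of sets were not tested. The share of all promoters with such gaps was not counted, so the gaps cannot be called particular to Hox genes.

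The 11 genes with no positive fragment at their gene start were Hoxa2, Hoxa6, Hoxa9, Hoxa11, Hoxb2, Hoxb6, Hoxc4, Hoxc8, Hoxc12, Hoxd8 and Hoxd11, and of these Hoxd8 had a single Negative set. Counting any annotated start, Hoxb2 was positive in 6 sets, Hoxc4 in 8 and Hoxd11 in 4, while Hoxc6 then had none. Each of the 11 had fragments in all 10 plasmid lists. Hoxa9 had 362 plasmid entries, from 3 to 100 in a list, so its start was among the cloned fragments.

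No promoter of the 39 genes was called in limma over 201 tests, and 4 (1.99%) had an unadjusted p under 0.05, against 1.21% of all promoter tests. All 4 were of Hoxd3 and Hoxd4, which share every fragment, so they are 2 distinct results counted once for each gene. The background over all promoters was 0% in 16 of the 17 comparisons and 0.00885% in HB against ES. Averaged over stages, 23 Hox promoters passed the filter on low values, 13 of them with a higher positive than Negative mean, and their median difference was 0.01 on the log2 scale, against 0.05 over all promoters tested.

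**Figure D3:**
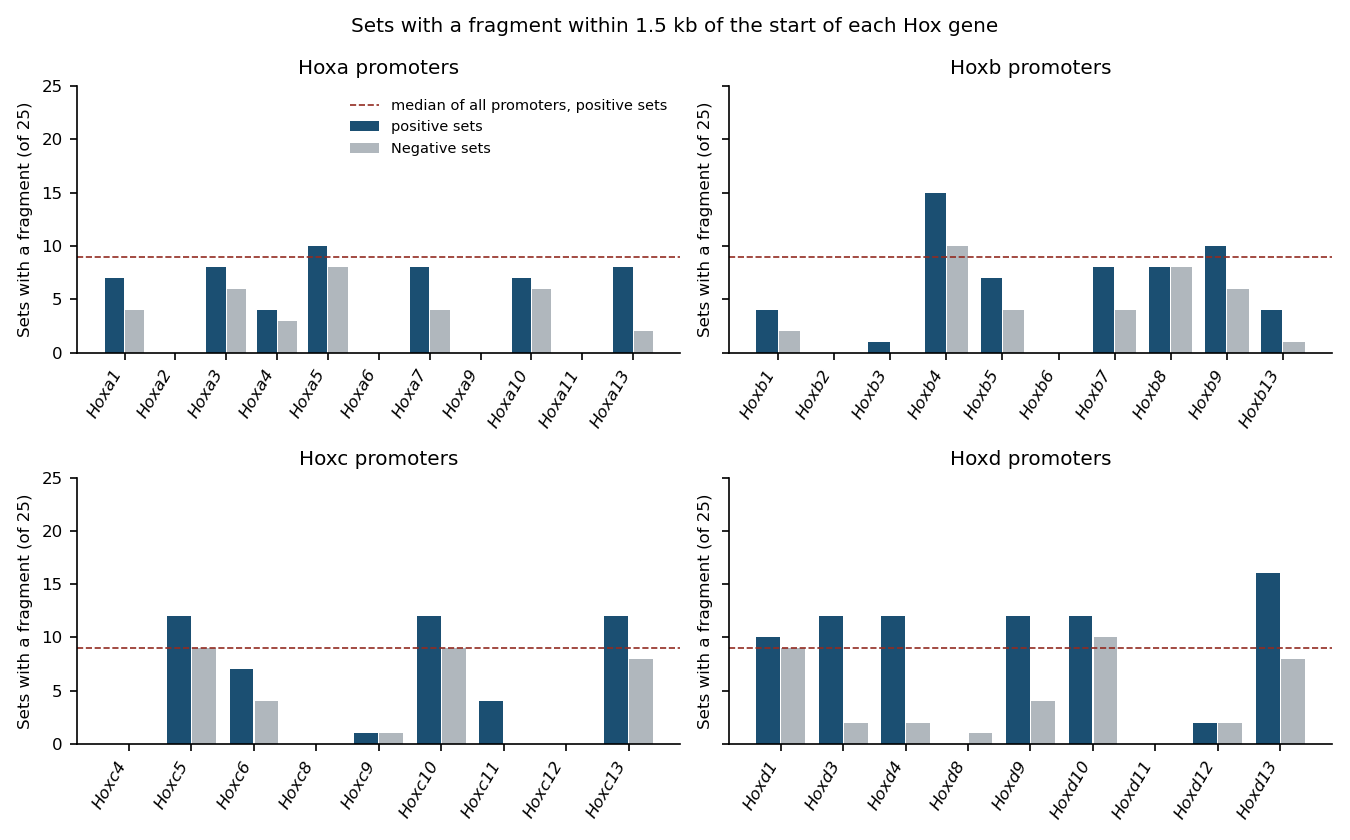
Number of the 25 positive (dark bars) and 25 Negative (grey bars) sets with a fragment within 1.5 kb of the start of each Hox gene, by cluster, with the median of all protein-coding genes for positive sets (9) as a dashed line. Hoxd13 and Hoxb4 stand highest at 16 and 15 positive sets, and 11 genes have no dark bar.

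Genes that act on the clusters were described in the same way, as a list of 31 that held CDX and TALE homeodomain genes, Trithorax and Polycomb members, retinoic acid genes and the neighbours Evx1 and Evx2. Of these 28 had a positive fragment at their start and 3 did not (Pbx4, Kdm6b and Rarb), and the median was 13 positive sets. Over 319 tests limma called 0, and 6 (1.88%) had an unadjusted p under 0.05, against the 1.21% of all promoter tests. The lowest was that of Kmt2a, the MLL methyltransferase, in HE1 against HB, at 1.65 ± 0.54 on the log2 scale (SE, unadjusted p = 0.00216, adjusted p = 0.998 in limma). For Rara, a retinoic acid receptor positive in 11 sets and Negative in 2, positive minus Negative was 0.15 ± 0.07 (adjusted p = 1.00, limma).

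Distal fragments merged into 47 sites in the windows, 18 in Hoxb, 11 in Hoxc and 9 each in Hoxa and Hoxd, of 58911 sites in the genome. Distal is the label of the sorted lists, and some of these sites cover an annotated transcript start. The median Hox site was positive in 4 sets against 2 over all sites. In the Hox windows 13 sites (27.7%) were positive in at least 8 sets, 11 without the 4 HE1 libraries, against 14.2% of all sites. No Negative set held a fragment at 16 of the Hox sites (34.0%), against 40.2% of all sites. Of the 8 most recurrent, 6 lay in Hoxb and 2 in Hoxd. The eighth was tied with a further Hoxb site, chr11:96234718-96235336, at 9 positive sets, and was taken for its larger number of distinct fragments. That further site was positive in 3 replicates of ES (8 sets in all without the 4 HE1 libraries) and Negative in 5 (4).

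The most recurrent site lay between Hoxb9 and Hoxb8 at chr11:96278896-96279170, outside exons and introns and 2735 bp from the nearest annotated Hoxb8 start. It was 275 bp long, with 44.0% GC. Its sequence is shown, chosen after its values were seen, because no other distal site of the 4 clusters recurred in so many positive sets. Capitals mark the homeodomain core TAAT, once on each strand, and 46.5% of distal fragments within 10 bp of its length hold that motif. None of the other 8 motifs matched.
Hoxb9 to Hoxb8 site: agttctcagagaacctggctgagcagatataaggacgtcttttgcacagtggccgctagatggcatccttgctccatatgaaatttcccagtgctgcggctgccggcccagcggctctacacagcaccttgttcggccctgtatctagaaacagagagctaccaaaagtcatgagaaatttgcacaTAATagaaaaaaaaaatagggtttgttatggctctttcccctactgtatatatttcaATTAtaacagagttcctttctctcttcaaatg

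Its 10 distinct fragments were positive in 14 sets and Negative in 2, and without the 4 HE1 libraries in 13 and 1. High sets held it 12 times (11) and Low sets 3 times, where high sets listed a median of 14381 fragments and Low sets 2786. The stage mean in replicates 1 to 5 was 0.0630, 0.153, 1.06, 1.66 and 0 per 10000 in high sets and 0.115, 0.0454, 0.132, 0 and 0 in Low sets, so that Low was the higher in replicate 1, the deepest. It was positive in replicates 1, 2 and 3 of both ES and HE1, in 2, 3 and 4 of HB, in 1, 2 and 4 of HP and in 1 and 2 of HE2. The stage mean in the positive sets of replicates 1 to 5 was 0.0696, 0.137, 0.640, 1.05 and 0 per 10000, and in the Negative sets 0.0153, 0.0477, 0, 0 and 0. The 4 replicates with a fragment had a higher positive than Negative value. The site was named for its many positive sets, so neither this nor the p below is support for a difference. The Negative zeros of replicates 3 and 4 come from short lists. Positive values there rest in part on 1 fragment each. These were 2.59 in HE1 replicate 3, 3.57 in HP replicate 4 and 1.70 in HB replicate 4, of 3865, 2805 and 5877 listed. Positive minus Negative was 0.29 ± 0.12 on the log2 scale (SE, means of 0.30 and 0.02), with an unadjusted p of 0.0126, the lowest of the Hox distal sites, and an adjusted p of 1.00 in limma. High minus Low was 0.29 ± 0.15 (adjusted p = 1.00, limma). The positive sets hold more listed fragments than the Negative sets, with medians of 16669 and 6844, which raises the chance that a set holds a given site. The part of this, and of the gap between high and Low sets, in the counts and levels was not tested. All 10 plasmid lists held the site.

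The next sites were seen in Negative cells more often. Between Hoxb5 and Hoxb4, chr11:96311217-96312408, which contains the Hoxb fragment printed above, was positive in 13 sets and Negative in 10 (9 without the 4 HE1 libraries). Its stage mean was 0.352, 0.214, 0.257, 0.389 and 0 per 10000 in the positive sets of replicates 1 to 5, and 0.544, 0.303, 0.107, 0 and 0 in the Negative sets. Replicates 1 and 2 were higher in Negative cells and replicates 3 and 4 in positive cells. In an exon of Evx2, a homeobox gene next to Hoxd13, chr2:74655508-74656547 was positive in 13 sets (12 without the 4 HE1 libraries) and Negative in 6 (4).

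In an intron of Hoxb6, chr11:96294416-96295308 was positive in 12 sets and Negative in 7, and in 11 and 5 without the 4 HE1 libraries. It was seen in 4 positive replicates of HE1 (3 without them) and 1 of HB. HE1 minus HB was 0.60 ± 0.34 (SE, adjusted p = 0.977, limma), and 0.46 ± 0.29 without them (adjusted p = 0.982, limma). The site chr11:96341687-96342314, in exons of Hoxb3 and Gm11536 and across an annotated start of Gm11536, was positive in 12 sets and Negative in 8. Beyond Hoxb9, in an exon of Gm53 and across an annotated start of Gm53, chr11:96261296-96262026 was positive in 11 and Negative in 9. Between Hoxd13 and Hoxd12, chr2:74672764-74673465, which contains the Hoxd fragment printed above, was positive in 10 and Negative in 4. In an exon of Hoxb8, 1395 bp from an annotated Hoxb8 start, chr11:96284120-96284903 was positive in 9 sets, none of them in ES, and Negative in 6. Each of these last 4 lost 1 Negative set and no positive set without the 4 HE1 libraries.

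**Figure D4:**
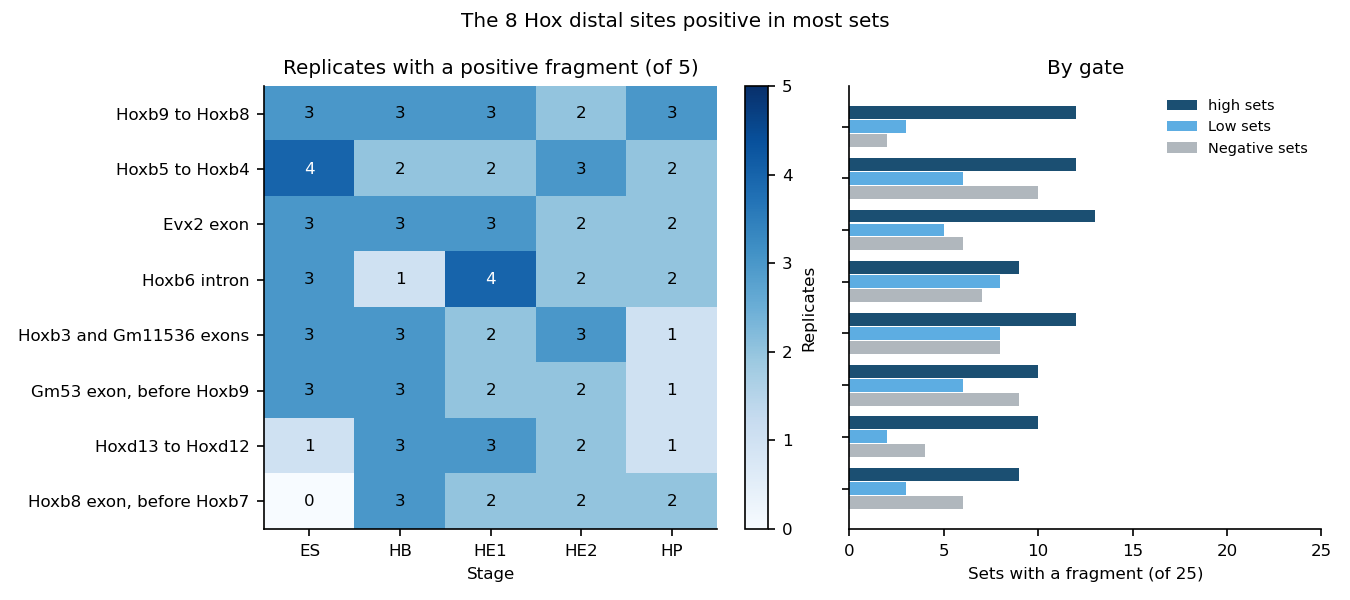
The 8 distal sites of the Hox windows positive in most sets, as the number of replicates (of 5) with a positive fragment at each stage (left, colour and figure) and the number of the 25 high, Low and Negative sets with a fragment (right). The site between Hoxb9 and Hoxb8 shows 12 high, 3 Low and 2 Negative sets, of lists whose median lengths were 14381, 2786 and 6844 fragments, and the site in a Hoxb8 exon shows 0 in ES.

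A site in an exon of Hoxa3, chr6:52170553-52171337, was named after its values were seen. It had no positive fragment in ES or HB, and was positive in 2 replicates of HE1, 3 of HE2 and 3 of HP. Its positive values in replicates 1 to 5 were 0.0435, 0.152, 0, 0 and 0 per 10000 in HE1, 0.0985, 0.154, 0.600, 0 and 0 in HE2, and 0.0517, 0.150, 0, 0 and 2.23 in HP. Later stages minus ES was 0.16 ± 0.08 on the log2 scale (SE, means of 0.16 and 0.00, unadjusted p = 0.0416, adjusted p = 0.437 in limma). It passed the filter on low values through the later stages only, so this difference restates the choice and is no support for it. The site had fewer plasmid entries from ES than from the other stages. The pDONR lists held 9, 37, 62, 47 and 34 in ES, HB, HE1, HE2 and HP, and the pSKB lists 2, 11, 10, 19 and 8. The part of this in the stage pattern was not tested. It was Negative in 2 sets. Without the 4 HE1 libraries it was positive in 1 replicate of HE1 and Negative in 1 set, and the difference was 0.15 ± 0.08 (adjusted p = 0.494, limma). Other Hox sites also lacked positive fragments in ES and HB. One was chr6:52257066-52257374, positive in 2 replicates of HE1, 2 of HE2 and 1 of HP. The share of all distal sites with this pattern was not counted.

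Over all 17 comparisons limma called 0 of 169 tests of Hox distal sites, and 2 (1.18%) had an unadjusted p under 0.05, against 1.59% of all tests of distal sites. The background was 0% in 15 comparisons, 0.0130% for positive against Negative in HE1 and 0.0183% for high against Low in HE1. Averaged over stages, 26 Hox sites passed the filter on low values and 16 had a higher positive than Negative mean, with a median difference of 0.02 against 0.01 over all sites tested.

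The plasmid lists show how the clusters entered the screen. They hold the fragments cloned from each stage, in the donor vector pDONR and in pSKB, with 1 list per stage and vector and so no test. Hoxb, the longest window, had most fragments, 278 to 389 per 1000000 distinct fragments over the 5 pDONR lists and 271 to 405 over the pSKB lists. Per 100 kb of window the pDONR lists gave 130 to 182 for Hoxb and 155 to 185 for Hoxd, so Hoxb was not the highest at every stage on that scale. Relative to its own level, Hoxc differed most between stages. In pDONR it had 198 per 1000000 in ES (95% exact binomial interval 187 to 210) and 237 in HB (225 to 250), against 138 (130 to 146) at HE1, 143 (134 to 153) at HE2 and 141 (132 to 150) at HP. The pSKB lists gave 206, 246, 118, 131 and 144 in the same order, so both vectors were higher in ES and HB. Hoxa in pDONR ranged from 181 in HP to 252 in HE1, and Hoxd from 212 in ES to 253 in HB. These intervals cover counting error only. Per the methods the sorted lists were limited to open chromatin peaks, which is not stated for the plasmid lists, so levels are not compared between both kinds of list.

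**Figure D5:**
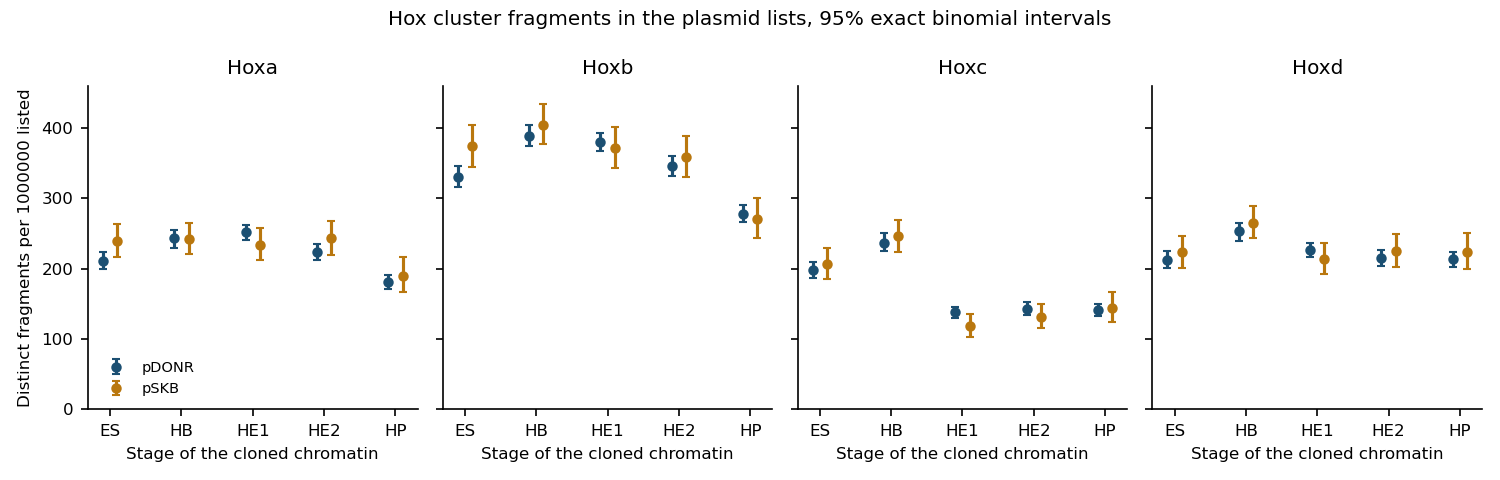
Distinct fragments of each cluster window per 1000000 distinct fragments in the pDONR and pSKB plasmid lists, by the stage whose chromatin was cloned, with 95% exact binomial intervals as bars. Hoxc falls from 237 (pDONR) and 246 (pSKB) in HB to 138 and 118 in HE1, and Hoxb, the longest window, is the highest at every stage on this axis, which is not scaled by window length.

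Of the listings in the Hox windows 85.5% were identical to a plasmid fragment, against 83.5% of all listings. Of the positive ones that were, 54.1% in HE1 and 34.4% in HE2 were found in a plasmid list of the same stage, against 9.83% in ES, 6.90% in HB and 9.41% in HP. The genome as a whole gave 51.6%, 34.2%, 17%, 12.2% and 12% for HE1, HE2, ES, HB and HP. Most of these positive Hox fragments in ES, HB and HP cells thus matched fragments cloned from another stage only. Of the Hox listings 13 were identical to a fragment of the PCR control lists, made from HM-1 cells without a reporter. There were 6 at chr2:74691874-74692084, across the start of Hoxd10 (4 positive), 6 at chr2:74763101-74763276, near the start of Hoxd1 (5 positive), and 1 in Hoxc. The counts of sets at the Hoxd10 and Hoxd1 promoters include them and were not redone without them. Without the control fragments the positive level of Hoxd was 2.76 per 10000 against 2.75 with them.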

How the data were processed

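Per the labels and methods, the authors combined 2 rounds of paired-end sequencing of PCR products, trimmed reads (Trim Galore), mapped them to mm10 (Bowtie2), kept unique pairs (SAMtools), wrote each pair as 1 fragment (bedtools) and removed duplicates. They filtered fragments against HM-1 control libraries, plasmid libraries and ATAC-seq peaks. The submitters' processing notes also name HOMER, without its role. The deposited sorted lists do not match these filters exactly, since 15549 listings were identical to an HM-1 control fragment and some matched no plasmid fragment. Sorted lists were deposited as coordinates without counts. Plasmid and control lists were deposited with whole-number read counts per fragment. PCR before sequencing can lose fragments, and a fragment read once weighs as much as one read many times.

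Sorted starts were taken as counted from 1 and plasmid starts from 0, since 83.5% of listed fragments then matched a plasmid fragment and 3.73% as deposited. Fragments touching a window were counted (1042 of 2288814 listed fragments on other sequences were left out). limma 3.58.1 in R 4.3.3 (lmFit, eBayes with trend, two-sided) tested log2(distinct fragments per 10000 listed + 1) for all windows of 150 kb, all promoters (1.5 kb each side of a gene start) and all merged distal sites with a fragment in at least 4 sets compared. Windows and promoters were held to the same filter of 4. For means over stages, each replicate of a group counted once if any of its stages held a fragment. p-values were adjusted over all features that passed the filter (Benjamini-Hochberg, threshold 0.05). A fold on this scale understates changes of rare features. Other work used Python 3.11.15, pandas 2.3.3 and scipy 1.17.1. The fit was also run on simulated Poisson counts with the real list lengths, for HE1 positive against Negative only. These had no further spread between replicates, so they do not show how large a difference could be called in the real sets.

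All 39 Hox genes were accounted for. Those named were the 4 windows, any feature called, the 12 promoters and 8 distal sites positive in most sets, promoters without a positive fragment, and genes known from blood or early mesoderm. Members singled out for a low unadjusted p or a stage pattern were chosen after their values were seen. Alternatives are given in the closing section. The members and lists were chosen with earlier results of these data known.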

Additional observations from a re-analysis of the deposited data

Results flagged for a closer look

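Over 56 groups of 5 replicates, 14 had 1 replicate far from the other 4 (a gap above 0.71 of the whole range). For normal values of equal spread about 1 in 20 groups would pass this mark. These values are not of that kind, since list lengths differ widely and many values are 0. The groups also overlap, so the 14 cannot be set against that share. All 14 were in replicates 3 or 5, whose lists are short. Values are fragments per 10000. In Hoxa, replicate 5 was high in the stage means of the positive (3.40), high (5.88) and Low (4.87) sets and in the HE1 Negative set (8.55). The Hoxa10 promoter alone gave 2.96, 5.21 and 4.87 in these positive, high and Low means, and the HE1 Negative value was 1 fragment. In Hoxb, replicate 5 was 0 in the HB positive set. In Hoxc, replicate 5 was high in the HE1 positive set (3.77), the HE2 positive set (6.44) and the HE2 Negative set (9), and replicate 3 in the ES Negative set (2.67). In Hoxd, replicate 3 was high in the Negative stage mean (8.40), in the Negative sets of HE1 (8.77), HE2 (13.9) and HP (15.2), and in the HP positive set (17.3). None of 80 pairs of stages moved in opposite directions in every replicate, but many of these pairs could not have been marked. The rule needed a difference other than 0 in each of the 5 replicates. In the short lists both sets were often 0, as in replicate 5 of Hoxb for high and Low at every stage.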

How the results depend on the processing

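In limma, 0 Hox windows, promoters or distal sites were called under every alternative run: another pseudocount, no filter on low values, plasmid-identical fragments only, other window or promoter sizes, Medium left out (windows only), without the 4 HE1 libraries, without each replicate in turn, and with the replicate number as a block. With the replicate block the value was 0 for each of the 5 counts of Hox features called, and 1 window, 0 promoter and 4 distal tests had an unadjusted p under 0.05. Same-numbered sets correlated at -0.04 to 0.62, above 0.1 for every number in some comparisons and not in others, and the block changed no Hox call. Counts over all features moved more. Windows called were 2, and 19 without replicate 5, promoters 1, and 17 without replicate 5, and distal sites 2, 51 with no filter and 0 to 4 without 1 replicate. The block gave 1, 0 and 0, and 0.25 added gave 1, 1 and 0. Without 1 replicate windows otherwise gave 1 each and promoters 0 or 1. Other settings gave 0 to 3.

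Of 135 other values under an alternative, 8 turned direction, none of them past the threshold. The log2 difference of later stages against ES was 0.13 (plasmid-identical), 0.12 (without replicate 4) and 0.03 (without replicate 5) for Hoxa, and 0.02 (plasmid-identical) and 0.02 (without replicate 4) for Hoxb. Leaving out 1 replicate gave -0.49 to 0.12 for Hoxa and -0.20 to 0.02 for Hoxb. High minus Low of Hoxd ran from -0.37 (without replicate 3) to 0.17 (without replicate 4). Positive minus Negative ran from -0.21 (without replicate 4) to 0.38 for Hoxb and from -0.09 (without replicate 4) to 0.46 for Hoxd. Hoxc kept its sign but ran from 0.01 (without replicate 5) to 0.68 for later stages against ES, and high minus Low was 0.12 for Hoxb without replicate 4 and 0.16 for Hoxc without replicate 5. The cause was not tested. The positive level of Hoxc was 0.854 per 10000 without replicate 5, and that of Hoxd 1.98 without replicate 3. Counting any coding start, and leaving the 4 HE1 libraries out of counts of positive sets, were chosen after seeing the data.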

Other observations

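The windows hold 7 genes annotated as microRNAs in GENCODE, Mir10a, Mir10b, Mir196a-1, Mir196a-2, Mir196b, Mir615 and Gm44463, of which the Mir10 and Mir196 genes are known to target Hox transcripts. No sorted fragment overlapped any of them. The nearest fragment to the Mir10a hairpin was 886 bp away, to Mir10b 1069 bp, and to Mir196b 8008 bp.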
